A study of Mus musculus with 6 samples.

Results

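The cytosolic ribosomal protein genes encode the proteins of the small (Rps) and large (Rpl) subunits of the cytoplasmic ribosome. Genes were taken by symbol: Rps or Rpl followed by a number, with Rpsa and the stalk genes Rplp0, Rplp1 and Rplp2, and without symbols of pseudogenes (-ps) or of the Rps6k kinases. The rule found 79 genes among 55291 symbols, 33 of the small and 46 of the large subunit. In GENCODE M21, 77 of them are protein-coding, and Rps3a2 and Rps3a3 are annotated as processed pseudogenes, so the label goes against the annotation for these 2. All 79 passed the filter on low counts.

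RNA was from mammary cells sorted for high CD49f, which the study took as basal, of 6-week-old pubertal mice of genotype Adgra3-lz/+, shared by every group. The labels give 5 mice pooled per sample, where the study's sorting methods give a smaller number. In this strain a lacZ reporter replaces exons of Adgra3, the gene of the adhesion receptor Gpr125, so that beta-galactosidase is joined to the remaining part of the receptor, and sorting on the fluorogenic substrate FDG with high CD49f gave Gpr125+ and Gpr125-negative cells. The 3 groups had 2 libraries each: Gpr125+ cells of the region around the terminal end buds (TEB-distal), Gpr125+ cells of the region near the nipple (nipple-proximal), and Gpr125-negative cells, whose labels give no region and which served as reference for both Gpr125+ groups. The comparisons asked how Gpr125+ cells of each region differ from Gpr125-negative cells and from each other.

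A ribosome holds its proteins in nearly equal numbers, apart from the stalk, which carries several copies of Rplp1 and Rplp2, so their mRNAs are usually abundant and kept at like levels in growing cells. Transcription of these genes responds to factors such as Myc. Their mRNAs commonly begin with a run of pyrimidines at the cap, through which mTOR signalling and Larp1 control translation. In puberty the mammary epithelium grows from the terminal end buds.

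mRNAs with such a run at the cap are named 5′ terminal oligopyrimidine (TOP) mRNAs, and pyrimidine runs near the annotated start were counted. A counted run need not begin at the start, as in Rpl39, where it begins at base 7. The counts are thus not counts of TOP mRNAs. RefSeq promoter windows on GRCm38, from 250 bases before to 50 bases after the annotated start, were matched for 57 of the 79 genes. An unbroken run of at least 8 C or T bases that reached within 10 bases of the start was present on the coding strand in 27 of these 57 genes (47.4%) and in 4259 of 27025 genes with a window (15.8%). The letters CCGGAAG, the core read by ETS-family factors, were present on either strand in 24 of 57 genes (42.1%) and in 9.93% of all genes. The letters TATAAA were present on either strand in 10.5% and 15.7%, respectively. The windows below run from 10 bases before the start to 20 bases from it, with the pyrimidine run in capitals, and show the 3 genes with the longest run wholly inside the window, Rps6, whose protein is the phosphorylation target of S6 kinases, and Rpl39, whose levels are described further on.
Rpl27a (chr7:109519185-109519214, plus strand): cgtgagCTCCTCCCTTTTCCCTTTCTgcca
Rpl35 (chr2:39005112-39005141, minus strand): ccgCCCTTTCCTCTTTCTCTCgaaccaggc
Rpl15 (chr14:18270967-18270996, minus strand): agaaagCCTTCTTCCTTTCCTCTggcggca
Rps6 (chr4:86857348-86857377, minus strand): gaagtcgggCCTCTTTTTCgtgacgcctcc
Rpl39 (chrX:37085203-37085232, minus strand): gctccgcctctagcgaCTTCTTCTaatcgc

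Total counts were 20134890 to 37296640 per library, at which 3 counts correspond to 0.0804 to 0.149 CPM (counts scaled to a common library total). The CPM values of genes and lists given below are instead normalized, with each library total adjusted by a scaling factor (TMM). Every coding ribosomal protein gene had at least 130 counts in every library. Marker lists were checked against the labels. The 12 basal genes (keratins and contractile genes with Trp63 and Oxtr) summed to 3393 and 3554 CPM among Gpr125-negative, 4017 and 23031 CPM among TEB-distal and 9449 and 14952 CPM among nipple-proximal libraries. Fitted changes in TEB-distal against Gpr125-negative were above zero for 10 of the 12. Trp63 went the other way, at 58.1 and 8.40 CPM among Gpr125-negative, 7.33 and 6.47 CPM among TEB-distal and 17.6 and 9.23 CPM among nipple-proximal libraries. The 12 luminal genes summed to 1450.4 to 2947 CPM per library, most of it Krt8, Krt18 and Epcam. Other luminal genes were missing from some libraries. Elf5 had 0 counts in Gpr125-negative replicate 2, TEB-distal replicate 1 and nipple-proximal replicate 1. Kit and Prlr had 0 in TEB-distal replicate 2, and Pgr and Foxa1 had 0 in Gpr125-negative replicate 2. Endothelial genes were higher in the Gpr125-negative libraries, at 1435 and 994 CPM among Gpr125-negative, 19.3 and 24.2 CPM among TEB-distal and 271 and 30.9 CPM among nipple-proximal libraries. The 5 adipocyte genes summed to 672 and 631 CPM among Gpr125-negative, 8.89 and 17.9 CPM among TEB-distal and 23.6 and 1.65 CPM among nipple-proximal libraries, nearly all of it Fabp4, which capillary endothelium also expresses, while Adipoq, Plin1, Cidec and Lep were at or near 0, at most 0.511 CPM. Endothelial markers thus moved with the reference group, and their part in the comparisons with Gpr125-negative cells was not tested. Sums were 23.6 to 73.8 CPM for leukocyte, 28.6 to 191 CPM for fibroblast, 1.67 to 24.4 CPM for pericyte and at most 1.32 CPM for erythroid genes. Adgra3 was not higher in Gpr125+ cells, at 35.7 and 18.6 CPM among Gpr125-negative, 15.0 and 4.83 CPM among TEB-distal and 19.2 and 12.3 CPM among nipple-proximal libraries, which goes against the labels, and groups are named here as labelled. Mice were pooled and no source states how the replicates were separated, so p-values measure the spread between these samples.

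Ribosomal protein genes took 1.16% to 4.17% of all counts, and the lowest and the highest library were the 2 TEB-distal replicates. The share was 2.57% and 1.69% in Gpr125-negative replicates 1 and 2, 1.16% and 4.17% in TEB-distal replicates 1 and 2, and 1.83% and 2.00% in nipple-proximal replicates 1 and 2. The TEB-distal replicates thus lay on either side of all other libraries, and the nipple-proximal libraries lay close together. Wilson 95% intervals were narrow, for example 1.156% to 1.165% in TEB-distal replicate 1 and 4.161% to 4.175% in TEB-distal replicate 2. They cover the sampling of reads only, not the spread between samples. The libraries hold no molecular identifiers by which copies of a molecule could be told apart. In sum, the small subunit genes took 40.9% to 43.4% of these counts in each library, so the balance of the subunits moved little while the total moved 3.59-fold between the TEB-distal replicates.

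**Figure D1:**
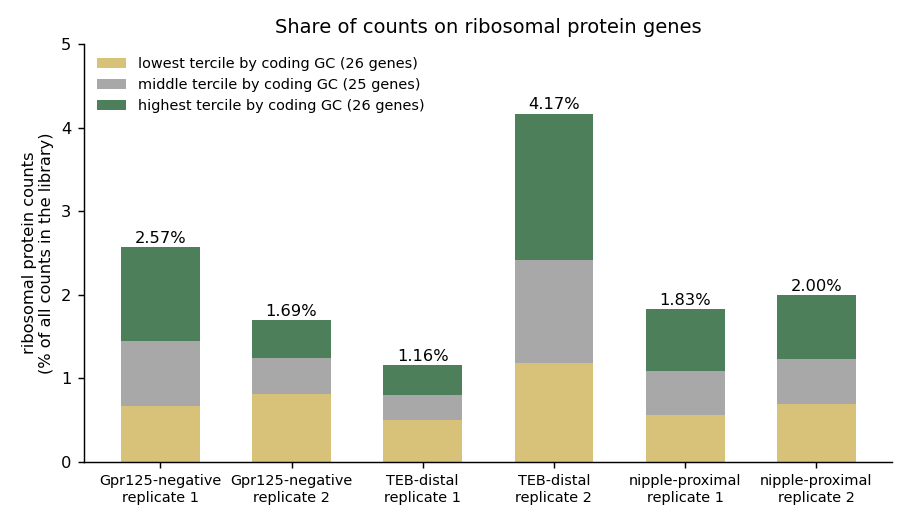
Share of all counts (%) taken by ribosomal protein genes in each of the 6 libraries; bars are stacked by terciles of the 77 coding genes ordered by the GC content of their coding sequence, and the printed value is the share of all 79 genes. TEB-distal replicate 1 is lowest at 1.16% and TEB-distal replicate 2 highest at 4.17%.

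Averaged by group, the share was 2.13% ± 0.620 (SD, n = 2) for Gpr125-negative cells, 2.66% ± 2.13 (SD, n = 2) for TEB-distal cells and 1.91% ± 0.120 (SD, n = 2) for nipple-proximal cells. The TEB-distal mean was higher than the Gpr125-negative mean by 0.532 percentage points (two-sided exact permutation test, p = 1) and higher than the nipple-proximal mean by 0.751 points (exact permutation p = 1). The nipple-proximal mean differed from the Gpr125-negative mean by -0.219 points (exact permutation p = 1). With 2 libraries against 2 this test cannot give a p below 0.333. Without TEB-distal replicate 2 the TEB-distal share was lower than the Gpr125-negative mean, with a difference of -0.972 points, and lower than the nipple-proximal mean, with a difference of -0.753 points. Without Gpr125-negative replicate 1 the nipple-proximal difference turned to 0.219 points.

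Between genes, levels were compared per exon length, as log2 CPM per kilobase with a prior count of 2. The library median over the 79 genes was 6.82 and 6.72 in Gpr125-negative, 5.85 and 7.70 in TEB-distal and 6.50 and 6.73 in nipple-proximal replicates 1 and 2. Rpl36, Rpl4 and Rplp0 were among the 5 genes with the highest mean level over the 6 libraries, at 9.15, 8.93 and 8.92 on this log2 scale. Rps3a3, Rps3a2, Rps10, Rpl23a and Rpl24 had the lowest, at 0.47, 0.94, 3.35, 3.72 and 4.03. Rps10 and Rpl23a share 92.4% and 85.7% of their 50-base windows with other annotated transcripts. Over all genes the median share of such windows was 62.2%, and 53 of 79 genes had more than 50% shared, so counts of reads that fit several places, and with them the order of levels, are uncertain. In 37 genes an exon also overlaps another annotated gene, and the counting did not use strand.

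**Figure D2:**
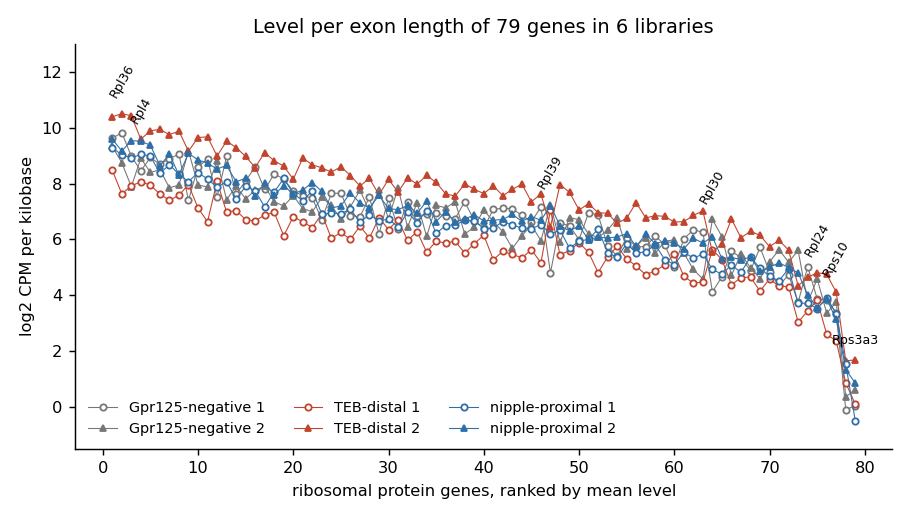
Level per exon length (log2 CPM per kilobase) of the 79 genes in each library, ranked from the highest to the lowest mean; open circles are replicate 1 and filled triangles replicate 2. The TEB-distal replicates form both outer curves for 62 of the 79 genes. At Rpl39 and Rpl30 TEB-distal replicate 2 lies near or below replicate 1.

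Evenness was taken as the SD of these log2 levels over the 79 genes, where a lower SD means more even levels. It was 1.80 and 1.59 in Gpr125-negative, 1.53 and 1.74 in TEB-distal and 1.68 and 1.68 in nipple-proximal replicates 1 and 2. The library with the fewest ribosomal protein counts, TEB-distal replicate 1, was also the most even, and Gpr125-negative replicate 1 the least even. This order depended on the measure: without Rps3a2 and Rps3a3 Gpr125-negative replicate 2 was the most even (SD 1.28) and TEB-distal replicate 2 the least (SD 1.47), and by the median absolute deviation they were Gpr125-negative replicate 2 (0.851) and nipple-proximal replicate 1 (1.02). The difference in SD was -0.07 for TEB-distal against Gpr125-negative (two-sided exact permutation p = 0.667), -0.02 for nipple-proximal against Gpr125-negative (exact permutation p = 1) and -0.05 for TEB-distal against nipple-proximal (exact permutation p = 1). Without Rps3a2 and Rps3a3 the first 2 differences turned to 0.0036 and 0.043.

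The order of the genes was similar across libraries, with Spearman's rho of the per-length levels between 0.781 and 0.973 over the 15 pairs of libraries (79 genes, which are not independent). The least alike pair was the 2 Gpr125-negative replicates, and the most alike pair the 2 nipple-proximal replicates. Across groups, Gpr125-negative replicate 2 and TEB-distal replicate 1 (rho 0.968) and Gpr125-negative replicate 1 and TEB-distal replicate 2 (rho 0.956) were more alike than either pair of replicates of these groups, at 0.781 and 0.875.

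Each gene was also followed against its own mean. TEB-distal replicate 2 was the highest library for 69 of 79 genes and TEB-distal replicate 1 the lowest for 65, with 62 genes at both extremes. Gpr125-negative replicate 2 was the highest for 8 genes and Gpr125-negative replicate 1 for 2. In the TEB-distal pair 77 of 79 genes were higher in replicate 2, by a median of 3.85-fold, while among all 17268 genes tested 49.2% were higher in replicate 2 and the median was 1.00-fold. In the nipple-proximal pair 68 of 79 were higher in replicate 2, by a median of 1.27-fold, and in the Gpr125-negative pair 36 of 79. Fold values here are on the scale of normalized CPM plus 0.5.

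**Figure D3:**
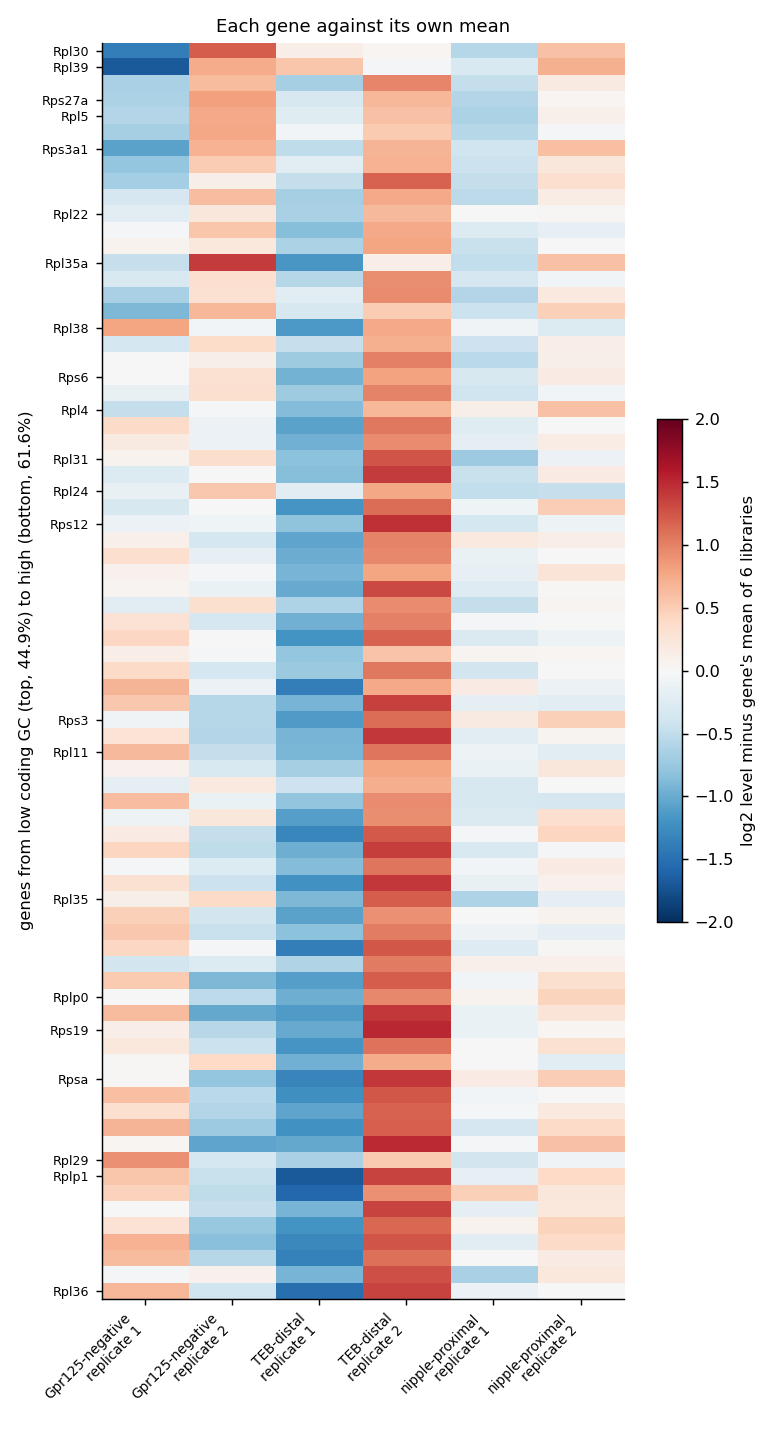
Level of the 77 coding genes in each library as log2 normalized CPM minus the mean of that gene over the 6 libraries, with genes ordered from low coding GC at the top to high at the bottom; red is above and blue below the mean, and some genes are named at the left. TEB-distal replicate 2 is red for most genes and TEB-distal replicate 1 blue, and the 2 Gpr125-negative libraries change colour in opposite ways from top to bottom.

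Rpl39 and Rpl30 were the exceptions in the TEB-distal pair, and they varied most against the library median of the 79 genes, with SDs of 1.16 and 1.04 on the log2 scale. In each library pair the value of replicate 1 is given before that of replicate 2. Rpl39, a short protein that lines the exit tunnel of the large subunit, stood at 39.9 and 217 CPM among Gpr125-negative, 191 and 125 CPM among TEB-distal and 105 and 212 CPM among nipple-proximal libraries. It was lower in TEB-distal replicate 2 than in replicate 1 and 5.45-fold higher in Gpr125-negative replicate 2 than in replicate 1. Rpl30, a protein of the large subunit, stood at 52.4 and 318 CPM among Gpr125-negative, 149.9 and 140.3 CPM among TEB-distal and 91.9 and 206 CPM among nipple-proximal libraries. It was nearly level in the TEB-distal pair and lowest in Gpr125-negative replicate 1.

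Rpl35a and Rps3a1 also varied widely, with SDs of 0.79 and 0.63, as did the processed copy Rps3a2 at 0.66. Rpl35a, one of the genes mutated in Diamond-Blackfan anaemia, stood at 47.2 and 172 CPM among Gpr125-negative, 28.8 and 71.3 CPM among TEB-distal and 46.1 and 98.1 CPM among nipple-proximal libraries. Gpr125-negative replicate 2 was its highest library. Rps3a1, of the small subunit, stood at 165 and 563 CPM among Gpr125-negative, 244 and 559 CPM among TEB-distal and 262 and 528 CPM among nipple-proximal libraries, and Gpr125-negative replicate 1 was its lowest library. Rpl21, Rpl3, Rps6 and Rps23 were among the genes that held their place best, with SDs of 0.13, 0.15, 0.16 and 0.17. Rps6, for instance, stood at 179 and 222 CPM among Gpr125-negative, 92.6 and 314 CPM among TEB-distal and 143 and 201 CPM among nipple-proximal libraries, in which the TEB-distal pair spans all other libraries.

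Rpl30 and Rpl39 also had the lowest GC content of the set. The GC content of the coding sequence ran from 44.9% in Rpl30 and 45.1% in Rpl39 to 61.6% in Rpl36. The stretches below are the first 120 coding bases, with G and C in capitals, of 2 genes with the lowest ratio of TEB-distal replicate 2 to replicate 1 and of Rpl36, with one of the highest. Rpl39 (chrX:37082520-37085402, minus strand) and Rpl30 (chr15:34440505-34443640, minus strand) are at the low end, and Rpl36 (chr17:56613416-56614243, plus strand) at the high end, all on GRCm38 with GENCODE M21 annotation. In these stretches 51, 56 and 74 of the 120 bases are G or C, in the order printed.
Rpl39: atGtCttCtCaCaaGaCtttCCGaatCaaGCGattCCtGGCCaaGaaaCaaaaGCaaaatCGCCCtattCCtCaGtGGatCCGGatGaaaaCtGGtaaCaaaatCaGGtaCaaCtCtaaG
Rpl30: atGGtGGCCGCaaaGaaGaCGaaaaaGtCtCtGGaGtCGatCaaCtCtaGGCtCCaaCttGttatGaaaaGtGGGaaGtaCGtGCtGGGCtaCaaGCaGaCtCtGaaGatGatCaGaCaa
Rpl36: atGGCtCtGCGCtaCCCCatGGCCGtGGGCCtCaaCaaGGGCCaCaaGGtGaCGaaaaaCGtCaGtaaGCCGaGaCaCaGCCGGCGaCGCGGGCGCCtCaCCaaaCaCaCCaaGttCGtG

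Rpl36, of the large subunit, stood at 348 and 165 CPM among Gpr125-negative, 76.1 and 556 CPM among TEB-distal and 201 and 220.3 CPM among nipple-proximal libraries. Rplp1, an acidic stalk protein that takes part in recruiting elongation factors, stood at 235 and 117 CPM among Gpr125-negative, 49.5 and 408 CPM among TEB-distal and 143 and 211 CPM among nipple-proximal libraries. Both were 7.31-fold and 8.23-fold higher, respectively, in TEB-distal replicate 2 than in replicate 1, and both were higher in Gpr125-negative replicate 1 than in replicate 2.

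Over the 77 coding genes, the log2 ratio of replicate 2 to replicate 1 followed coding GC with Pearson's r of -0.81 for the Gpr125-negative pair, 0.74 for the TEB-distal pair and -0.41 for the nipple-proximal pair (Spearman's rho -0.80, 0.73 and -0.36). These are descriptions across genes measured in the same pair of libraries, which share their depth and preparation. Over 13549 tested genes with a coding sequence, r was -0.35, 0.45 and -0.21, so the same direction was present outside the ribosomal protein genes and was less tight. The length of the coding sequence gave r of 0.02, -0.00 and -0.04 over the 77 genes. Among the 17 genes of translation elongation and other TOP mRNAs, r with coding GC was -0.92, 0.84 and -0.64.

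**Figure D4:**
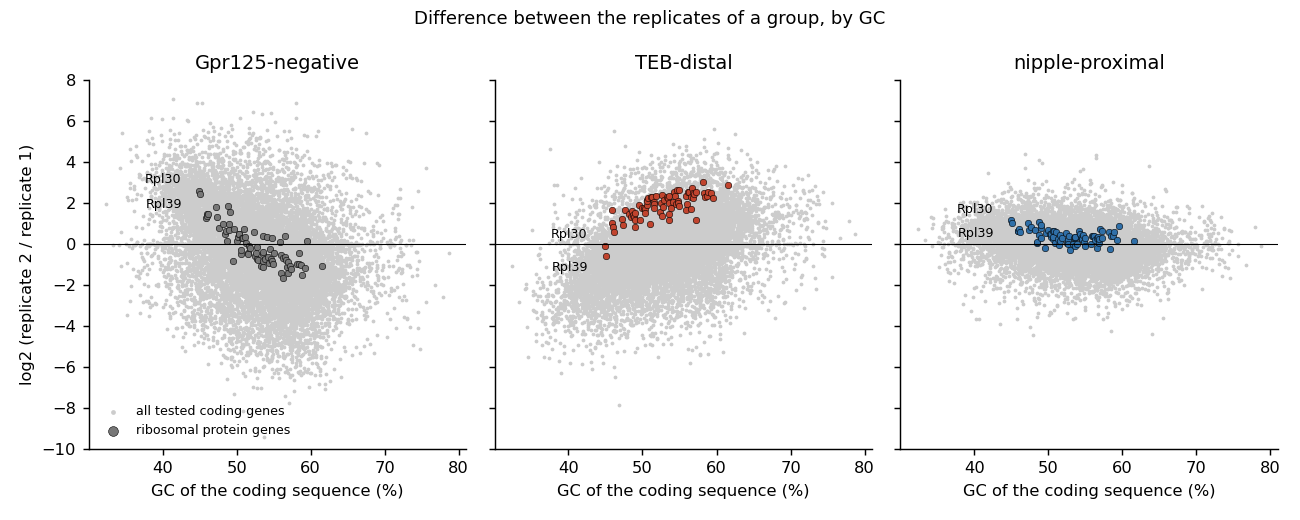
Log2 ratio of replicate 2 to replicate 1 against the GC content of the coding sequence (%) in each group; grey points are tested coding genes and coloured points the 77 coding ribosomal protein genes. The coloured points fall with GC in Gpr125-negative cells (r = -0.81), rise with GC in TEB-distal cells (r = 0.74) and lie nearly all above the zero line there.

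Terciles of the coding genes by GC show the size of this. The tercile with the lowest GC (26 genes, 44.9% to 50.7%) took 0.665% and 0.815% of all counts in Gpr125-negative replicates 1 and 2, and the tercile with the highest GC (26 genes, 54.6% to 61.6%) took 1.13% and 0.454%. In TEB-distal replicates 1 and 2 the lowest tercile took 0.504% and 1.18%, and the highest tercile 0.357% and 1.76%. The rise in TEB-distal replicate 2 was thus present in every tercile, by 2.35-fold in the lowest, 4.09-fold in the middle and 4.92-fold in the highest. In the nipple-proximal pair the lowest tercile took 0.561% and 0.693% and the highest 0.741% and 0.768%.

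Other measures, taken as sums, moved with these replicate differences. Mitochondrially encoded genes took 0.301% and 2.82% of counts among Gpr125-negative, 3.15% and 0.761% among TEB-distal and 1.35% and 2.43% among nipple-proximal libraries. Nuclear RNAs (Malat1, Neat1, Meg3 and Kcnq1ot1) summed to 1345 and 2952 CPM among Gpr125-negative, 3079.6 and 508 CPM among TEB-distal and 1673 and 1919 CPM among nipple-proximal libraries. Genes of the dissociation response, such as Fos and Hspa1a, which rise when tissue is handled, summed to 3249 and 28670.4 CPM among Gpr125-negative, 13948 and 7682 CPM among TEB-distal and 5313 and 9504 CPM among nipple-proximal libraries. As sums, all 3 measures were lower in Gpr125-negative replicate 1 and TEB-distal replicate 2 than in the other replicate of the group, the libraries in which GC-rich ribosomal protein genes were high. Single genes did not all follow the sums. Of 8 dissociation genes, 4 were higher in Gpr125-negative replicate 2 than in replicate 1 and 5 in TEB-distal replicate 2. Of the 4 nuclear RNAs, 2 were higher in Gpr125-negative replicate 2 and 0 in TEB-distal replicate 2. Of 12 basal marker genes, 11 were higher in TEB-distal replicate 2 than in replicate 1. The part of base composition, RNA quality, sample handling and cell content in the ribosomal protein levels was not tested, and in bulk samples fewer cells of a type cannot be told apart from less RNA per cell.

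No ribosomal protein gene passed the test between groups. By edgeR's quasi-likelihood test on all 6 libraries, 0 of 79 genes passed an FDR under 0.1 with at least a 2-fold change in TEB-distal against Gpr125-negative, where percent called over all 17268 genes was 0%. The count was also 0 of 79 in nipple-proximal against Gpr125-negative (0% of all genes) and in TEB-distal against nipple-proximal (0% of all genes), and every adjusted p of a ribosomal protein gene was 1. At an unadjusted p under 0.05, 0 of 79 passed in each comparison, against 3.80% of all genes higher and 2.25% lower, 2.62% higher and 0.927% lower, and 0.747% higher and 1.46% lower, in the same order of comparisons. The smallest unadjusted edgeR p among the 79 genes was 0.231, 0.395 and 0.276. DESeq2 on the 4 libraries of each comparison also called 0 of 79, with 2.51% of genes higher and 1.82% lower, 1.06% and 0.941%, and 1.19% and 1.06%. DESeq2 on all 6 libraries called 0 of 79 as well, with 3.23% of genes higher and 2.19% lower, 1.18% and 0.786%, and 0.273% and 0.571%. The median SE of a member's log2 fold change was 0.82 in each comparison, near the size of a 2-fold change.

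Fitted changes of the 79 genes were bunched. In TEB-distal against Gpr125-negative the median log2 fold change was 0.30, with 69 of 79 above zero, beside 0.03 over all genes tested. In nipple-proximal against Gpr125-negative it was -0.07, with 28 of 79 above zero, beside -0.00 over all genes. In TEB-distal against nipple-proximal it was 0.38, with 73 of 79 above zero, beside 0.06 over all genes. The first 2 comparisons share the Gpr125-negative libraries, and the third shares each Gpr125+ group with one of them. A fitted change of 2-fold or more was reached by 3, 1 and 0 of the 79 genes and by 41.0%, 37.5% and 34.5% of all genes tested. The median SE was 1.33 over all genes tested in each comparison, beside 0.82 over the 79 genes. Fitted changes over all genes were thus less precise, and these shares are not like for like. The direction in both comparisons with TEB-distal cells rested on replicate 2: without it the medians were -0.97 against Gpr125-negative and -0.87 against nipple-proximal, and without TEB-distal replicate 1 they were 0.94 and 1.09. The nipple-proximal median was 0.07 without nipple-proximal replicate 1 and -0.28 without replicate 2, and -0.33 when libraries were scaled by the total count alone.

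**Figure D5:**
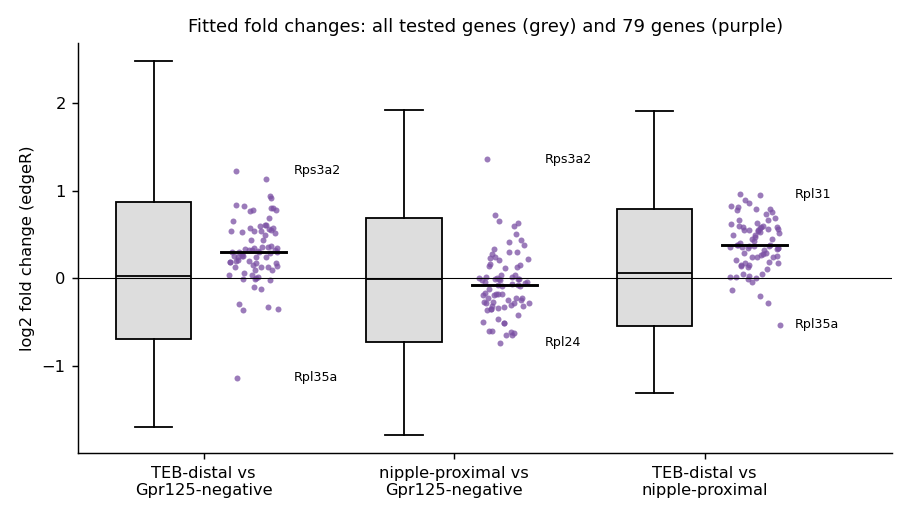
Log2 fold changes fitted by edgeR in the 3 comparisons; grey boxes give the quartiles and median of 17268 tested genes with whiskers from the 10th to the 90th percentile, purple points are the 79 ribosomal protein genes, and thick lines their medians. The points lie in a narrow band around medians of 0.30, -0.07 and 0.38, with none called.

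Groups overlapped in all but 1 gene in each comparison with TEB-distal cells. In TEB-distal against Gpr125-negative cells 1 of 79 genes, the processed copy Rps3a2, had groups that did not overlap, with both TEB-distal libraries higher, where 24.0% of all genes tested did not overlap. In TEB-distal against nipple-proximal cells this was 1 of 79, Rpl24, higher in the TEB-distal libraries (33.5% of all genes). In nipple-proximal against Gpr125-negative cells it was 16 of 79 (30.6% of all genes), with Rpl4, Rpl13a, Rpl23a, Rplp0, Rps3, Rpsa and Rps3a2 higher and, among the lower ones, Rpl24, Rpl31, Rpl35, Rpl36a, Rpl38, Rps10, Rps21 and Rps25. This split of 7 higher and 9 lower became 2 higher and 18 lower with libraries scaled by the total count alone, and over all genes tested it was 3434 higher and 1857 lower. With total-count scaling only Rpl4 and Rps3a2 stayed higher, and Rpl38 and Rps21 were no longer among the lower ones.

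Genes near the upper and lower ends of the fitted changes were looked at singly. Rpsa, a small subunit protein also known as a laminin receptor precursor, stood at 378 and 218 CPM among Gpr125-negative, 148 and 992 CPM among TEB-distal and 416 and 523 CPM among nipple-proximal libraries. Its log2 changes were 0.94 (SE 0.95) in TEB-distal and 0.66 (SE 0.95) in nipple-proximal against Gpr125-negative cells. On normalized CPM both nipple-proximal libraries lay above both Gpr125-negative libraries, while the TEB-distal pair held the lowest and the highest value. With libraries scaled by the total count alone, the nipple-proximal and Gpr125-negative libraries overlapped in Rpsa. Rps3a2 stood at 0.667 and 0.948 CPM among Gpr125-negative, 1.36 and 2.42 CPM among TEB-distal and 2.21 and 1.93 CPM among nipple-proximal libraries, close to the floor, and 90.2% of its 50-base windows are shared with other transcripts.

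Rpl35a had the lowest change in TEB-distal against Gpr125-negative cells, -1.13 (SE 0.87), and in TEB-distal against nipple-proximal cells, -0.53 (SE 0.86). Rpl29, a large subunit protein that binds heparin, followed at -0.36 (SE 0.84). Its highest library was Gpr125-negative replicate 1, at 36.5 CPM, and its lowest TEB-distal replicate 1, at 12.1 CPM, and 78.5% of its windows are shared. In nipple-proximal against Gpr125-negative cells the lowest were Rpl24 at -0.73 (SE 0.82), Rpl35 at -0.65 (SE 0.81) and Rpl29 at -0.65 (SE 0.84). Rpl24, at the face between the subunits, stood at 15.0 and 24.6 CPM among Gpr125-negative, 14.5 and 28.9 CPM among TEB-distal and 11.8 and 12.1 CPM among nipple-proximal libraries, and Rpl35, at the tunnel exit, at 153 and 185 CPM among Gpr125-negative, 75.7 and 327 CPM among TEB-distal and 92.2 and 124 CPM among nipple-proximal libraries. In both genes the nipple-proximal libraries were below the Gpr125-negative ones.

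In TEB-distal against nipple-proximal cells the highest were Rpl31 at 0.96 (SE 0.82), Rps12 at 0.95 (SE 0.83) and Rpl35 at 0.90 (SE 0.81). Rpl31, which sits near the tunnel exit, stood at 149 and 182 CPM among Gpr125-negative, 80.5 and 342 CPM among TEB-distal and 85.7 and 132 CPM among nipple-proximal libraries, and Rps12 at 108 and 111 CPM among Gpr125-negative, 66.6 and 324 CPM among TEB-distal and 92.2 and 109 CPM among nipple-proximal libraries. TEB-distal replicate 1 was below both nipple-proximal libraries in both genes and TEB-distal replicate 2 far above them. After Rpl35a the lowest were Rpl4 at -0.28 (SE 0.80) and Rps2 at -0.20 (SE 0.92). Rpl4, which reaches into the exit tunnel, was among the most counted genes, at 703 and 964 CPM among Gpr125-negative, 537 and 1545 CPM among TEB-distal and 1062 and 1469 CPM among nipple-proximal libraries, and Rps2, at the mRNA entry channel, stood at 526 and 268 CPM among Gpr125-negative, 128 and 723 CPM among TEB-distal and 532 and 445 CPM among nipple-proximal libraries.

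By role, the small subunit (33 genes) had median log2 fold changes of 0.36, -0.04 and 0.39 in TEB-distal against Gpr125-negative, nipple-proximal against Gpr125-negative and TEB-distal against nipple-proximal cells. The large subunit (46 genes) had 0.28, -0.13 and 0.37. The small subunit's part of the per-length level was 39.0% and 42.4% in Gpr125-negative, 40.7% and 40.7% in TEB-distal and 39.7% and 41.0% in nipple-proximal replicates 1 and 2, and group means differed by at most 0.324 percentage points (exact permutation p = 1 in each comparison).

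The 3 stalk genes, whose proteins recruit translation factors, summed to 1386 and 828 CPM among Gpr125-negative, 552 and 2507 CPM among TEB-distal and 1196 and 1530.5 CPM among nipple-proximal libraries, with medians of 0.37, 0.01 and 0.37 in the same order of comparisons. Rplp0, the stalk base, stood at 813 and 559.9 CPM among Gpr125-negative, 409 and 1574 CPM among TEB-distal and 841 and 1100.2 CPM among nipple-proximal libraries, and Rplp2 at 338 and 151 CPM among Gpr125-negative, 94.2 and 526 CPM among TEB-distal and 212 and 219 CPM among nipple-proximal libraries. All 3 were higher in TEB-distal replicate 2 than in replicate 1 and lower in Gpr125-negative replicate 2 than in replicate 1. Rpl5 and Rpl11 bind the 5S ribosomal RNA and, outside the ribosome, the p53 regulator Mdm2. Rpl5 stood at 165 and 423 CPM among Gpr125-negative, 211 and 373 CPM among TEB-distal and 160.5 and 267 CPM among nipple-proximal libraries. Rpl11 stood at 142 and 65.1 CPM among Gpr125-negative, 47.7 and 191 CPM among TEB-distal and 84.3 and 77.8 CPM among nipple-proximal libraries. Their Gpr125-negative replicates differed in opposite directions, Rpl5 being higher in replicate 2 and Rpl11 in replicate 1. Coding GC is 46.0% in Rpl5 and 53.6% in Rpl11.

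Of 9 genes listed around the exit tunnel, a list without Rpl4, 8 were higher in TEB-distal replicate 2 than in replicate 1, as were 77 of all 79 genes. Rpl39 was the exception among the 9, whose medians were 0.24, -0.28 and 0.37. Rpl38, needed for translation of Hox mRNAs in the mouse embryo, stood at 209.9 and 117 CPM among Gpr125-negative, 54.7 and 207 CPM among TEB-distal and 116 and 101 CPM among nipple-proximal libraries, with Gpr125-negative replicate 1 and TEB-distal replicate 2 nearly level and highest. A chosen list of 18 genes mutated in Diamond-Blackfan anaemia, a failure of red cell production, had medians of 0.21, -0.28 and 0.46, and all 18 were higher in TEB-distal replicate 2 than in replicate 1. Rps19, the gene most often mutated in that disease, stood at 449 and 280.0 CPM among Gpr125-negative, 204 and 1167 CPM among TEB-distal and 375 and 421 CPM among nipple-proximal libraries.

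Further genes are known for additional roles or an unusual structure. Rps3, a protein of the mRNA entry channel that also acts in DNA repair, stood at 801 and 570.1 CPM among Gpr125-negative, 384 and 1828 CPM among TEB-distal and 960.0 and 1171 CPM among nipple-proximal libraries, and shares 2.96% of its windows with other transcripts. Rps27a, made as a fusion with ubiquitin, stood at 165 and 455 CPM among Gpr125-negative, 206 and 409 CPM among TEB-distal and 171 and 264 CPM among nipple-proximal libraries, and was highest in Gpr125-negative replicate 2. Rpl10, which joins late in the maturation of the large subunit, stood at 238 and 295 CPM among Gpr125-negative, 131 and 642 CPM among TEB-distal and 278 and 417 CPM among nipple-proximal libraries. Rpl41, the shortest protein of the set with 75 coding bases, stood at 619 and 288 CPM among Gpr125-negative, 224 and 1099 CPM among TEB-distal and 377 and 370.1 CPM among nipple-proximal libraries. In each of these 4 genes TEB-distal replicate 2 was above replicate 1. Rpl13a, which also takes part in translational silencing in inflammation, stood at 62.2 and 66.8 CPM among Gpr125-negative, 53.1 and 166 CPM among TEB-distal and 87.2 and 87.2 CPM among nipple-proximal libraries, with the nipple-proximal pair nearly identical and above both Gpr125-negative libraries on this scale. With libraries scaled by the total count alone, these groups overlapped in Rpl13a. Rps4x, an X-linked gene, stood at 171 and 296 CPM among Gpr125-negative, 197 and 617 CPM among TEB-distal and 196 and 344 CPM among nipple-proximal libraries.

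Rpl22 and its paralog Rpl22l1, which can replace it in the ribosome, moved in opposite directions in the TEB-distal pair and in the same direction in the other pairs. Rpl22 stood at 77.2 and 106 CPM among Gpr125-negative, 57.6 and 143 CPM among TEB-distal and 90.3 and 92.2 CPM among nipple-proximal libraries, and Rpl22l1 at 14.3 and 231 CPM among Gpr125-negative, 170.5 and 38.1 CPM among TEB-distal and 71.3 and 100.4 CPM among nipple-proximal libraries. Rpl22l1 was higher in Gpr125-negative replicate 2 and TEB-distal replicate 1, and its coding GC, 39.9%, is below that of all 77 coding genes of the set, while that of Rpl22 is 48.4%. Fau, which encodes a ribosomal protein fused to a ubiquitin-like protein and falls outside the symbol rule, stood at 268 and 186 CPM among Gpr125-negative, 103 and 573 CPM among TEB-distal and 221 and 275 CPM among nipple-proximal libraries, and was higher in TEB-distal replicate 2 than in replicate 1. Other paralogs ranged from Rps27l, at 102.9 to 208 CPM, and Rpl7l1, at 81.6 to 156 CPM, down to Rpl3l, with 1 count in 1 library. 319 symbols of annotated ribosomal protein pseudogenes took 0.0213% to 0.0641% of counts, lowest and highest in the same libraries as the genes themselves.

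Companion lists were followed alongside, and edgeR called 0 genes of each in every comparison. The 17 genes of translation elongation and other TOP mRNAs summed to 5748 and 11158 CPM among Gpr125-negative, 7543 and 12329.6 CPM among TEB-distal and 8471 and 11774 CPM among nipple-proximal libraries, with 12 of 17 higher in TEB-distal replicate 2. Their 2 most abundant genes were Eef2, which moves the ribosome along the mRNA, at 1493 and 865 CPM among Gpr125-negative, 723 and 2975 CPM among TEB-distal and 1997 and 2264 CPM among nipple-proximal libraries, and Eef1a1, which delivers aminoacyl-tRNA, at 926 and 1208 CPM among Gpr125-negative, 774 and 2222 CPM among TEB-distal and 1486 and 2301 CPM among nipple-proximal libraries. Both were above both Gpr125-negative libraries in the nipple-proximal pair. The median log2 fold changes of the list were 0.20, 0.11 and 0.07.

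The 20 ribosome biogenesis genes summed to 2821 and 5561 CPM among Gpr125-negative, 1844 and 1723 CPM among TEB-distal and 2548 and 4314 CPM among nipple-proximal libraries, so that both TEB-distal libraries were below all others. Their median log2 fold change was -1.28 in TEB-distal against Gpr125-negative, -0.19 in nipple-proximal against Gpr125-negative and -1.0 in TEB-distal against nipple-proximal cells, with 12 of 20 genes lower without overlap in the first (1734 of 17268 genes tested) and 15 of 20 in the last (3156 of 17268), and 0 called. In the same comparisons the 12 endothelial genes had medians of -5.85, -2.65 and -2.69, and their part in the biogenesis values was not tested. Ncl, which encodes nucleolin, stood at 394 and 1749 CPM among Gpr125-negative, 503 and 283 CPM among TEB-distal and 613 and 1336 CPM among nipple-proximal libraries, with a log2 fold change of -1.45 (SE 0.94) against Gpr125-negative, and Gnl3, which encodes nucleostemin, at 171 and 1126 CPM among Gpr125-negative, 361 and 240.1 CPM among TEB-distal and 333 and 543 CPM among nipple-proximal libraries, with -1.11 (SE 0.96). Gpr125-negative replicate 2 was highest for both.

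The 78 mitochondrial ribosomal protein genes, whose products serve translation inside mitochondria, summed to 4624 and 2871 CPM among Gpr125-negative, 2818 and 3075 CPM among TEB-distal and 3110.5 and 2531 CPM among nipple-proximal libraries. In the TEB-distal pair 46 of 78 were higher in replicate 2, at a median of 1.10-fold, where the cytosolic genes had 77 of 79 and 3.85-fold. Their medians in the 3 comparisons were -0.39, -0.49 and 0.08. Their most abundant genes were Mrps6, at 93.2 to 166 CPM, and Mrpl14, at up to 200.1 CPM. Among 10 upstream regulators, Eif4ebp1, which restrains cap-dependent translation, stood at 425 and 278 CPM among Gpr125-negative, 226 and 602 CPM among TEB-distal and 756 and 664 CPM among nipple-proximal libraries, and Myc at 316 and 326 CPM among Gpr125-negative, 179.6 and 516 CPM among TEB-distal and 422 and 558 CPM among nipple-proximal libraries. Myc was lowest in TEB-distal replicate 1, as were the ribosomal protein genes, and highest in nipple-proximal replicate 2. The list had medians of 0.18, -0.11 and -0.06.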

How the data were processed

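RNA-seq counts of 6 libraries were analysed. The authors prepared total RNA with SMART-Seq HT, aligned reads to mm10 with STAR (2.7.3 per the labels; the study's methods name an earlier release), counted them per gene with HTSeq without strand, and deposited raw counts without normalization. The annotation release and read handling of multiple hits are not given in the sources used here. Counts were fitted in R 4.3.3 with edgeR 4.0.16 (TMM, filterByExpr, robust quasi-likelihood test, all 6 libraries in 1 model, 17268 genes, Benjamini-Hochberg adjustment over all of them). DESeq2 1.42.0 was an alternative. Calls needed an FDR under 0.1 and a 2-fold change, as the study used against Gpr125-negative cells. The same was applied between the Gpr125+ groups, where the study's methods give a stricter adjusted p threshold and its figure legend an FDR of 0.1. Group shares and evenness were compared by exact permutation in SciPy. Per-length levels used the union of exons of GENCODE M21 (GRCm38), in which 96.4% of symbols were found; GC came from its principal coding transcripts. Sequences of start windows are from RefSeq (GRCm38). Scripts were tested on simulated data. Replicate numbers come from the labels, and each replicate pair differed by far more than counting noise. Named genes were those at the extremes of level, fold change and variability, genes with known special roles, and the 2 most abundant of each companion list. The genes, lists and rules were chosen with earlier results of these data known. Some genes and a sequence are not reported here.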

Additional observations from a re-analysis of the deposited data

How the results depend on the processing

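The count of ribosomal protein genes called was 0 in each of the 3 comparisons under every alternative run: DESeq2 size factors in edgeR, DESeq2 on 6 or 4 libraries, edgeR on 4 libraries, no filter on low counts, no fold threshold, the replicate block, and each library left out. Over all genes, no filter gave 137, 58 and 39 calls where the filtered fit gave 0. Without Gpr125-negative replicate 1 the filtered fit gave 747 calls over all genes in TEB-distal and 335 in nipple-proximal against Gpr125-negative cells, and leaving out any other single library gave at most 46 in a comparison.

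Median log2 fold changes with 1 library left out ran from -0.97 to 0.94 in TEB-distal against Gpr125-negative, from -0.28 to 0.0673 in nipple-proximal against Gpr125-negative and from -0.87 to 1.09 in TEB-distal against nipple-proximal cells. Total-count scaling moved the second to -0.33, where the median of all genes was -0.23, and gave 0.53 in the third, where that of all genes was 0.21. With a library left out, differences in the share of counts ran from -0.972 to 2.04 points, from -0.657 to 0.219 points and from -0.753 to 2.25 points, and those in evenness from -0.17 to 0.0399, from -0.12 to 0.0884 and from -0.16 to 0.0558. The median absolute deviation in place of the SD turned the evenness difference to 0.0209 in TEB-distal and 0.0696 in nipple-proximal against Gpr125-negative cells, and leaving out the 2 processed pseudogenes turned these to 0.00357 and 0.0430. Members without overlap in nipple-proximal against Gpr125-negative cells went from 7 higher and 9 lower to 2 and 18 with total-count scaling, and in TEB-distal against nipple-proximal from 1 to 2 higher. The causes were not tested. Other alternatives kept the sign of the main value, though not always its place relative to all genes. Without Gpr125-negative replicate 1 the median in TEB-distal against Gpr125-negative was 0.36, beside 0.53 over all genes.

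No source says what the replicate numbers share. Deviations of same-numbered libraries correlated at -0.13, 0.29 and -0.04 in the 3 comparisons, which with 2 pairs each does not settle whether the numbers pair the libraries. Adding the replicate block to the model gave medians of 0.15, -0.14 and 0.25, beside 0.17, 0.16 and 0.0041 over all genes, with 0 called. In TEB-distal against Gpr125-negative the median thus no longer lay above that of all genes. A crossed pairing of TEB-distal and Gpr125-negative replicates, added after seeing the data, called 0. The alternatives on pseudogenes, principal transcript length and overlap were also chosen after seeing the data. With 2 libraries a group, depth is not the limit for these abundant genes; the spread between replicates is.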
